A study of Mus musculus with 12 samples.

Results

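The comparison described here is that of mice without RXRα in hepatocytes fed retinoic acid (RA) with mice of the same genotype on the normal diet. It rests on 6 of the 12 liver arrays of the series, 3 of RA-treated RXRα-KO mice (KO_RA) and 3 of untreated RXRα-KO mice (KO), and covers all 12393 genes that the platform annotation names by a single symbol. Where a gene has several probe sets the brightest on average stands for it, so no gene entered the test by how it changed. The other 6 arrays, 3 of untreated wild type mice (WT) and 3 of RA-treated wild type mice (WT_RA), enter the estimate of the spread and the comparison between genotypes. All mice were males of 12 weeks on a C57BL/6 background, and the RA groups ate all-trans RA at 150 mg per kg of diet for 7 days. In KO mice, Cre recombinase under the albumin promoter had removed the floxed exon 4 of Rxra, which encodes the DNA-binding domain. A shortened protein with the ligand-binding domain is still made. The albumin promoter directs the deletion to hepatocytes, and whether the other cells of the liver kept an intact Rxra was not measured here. The arrays are of whole liver, each labelled as a biological replicate.

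All-trans RA, the acid form of vitamin A, binds the retinoic acid receptors (RARα, RARβ and RARγ). These sit on DNA mainly as heterodimers with a retinoid X receptor (RXRα, RXRβ or RXRγ), often at direct repeats of a short half-site, and activate transcription when RA binds. RXRα is the most abundant RXR of the liver and also pairs with the receptors for bile acids, oxysterols, fatty acids and xenobiotics. Liver answers RA by inducing Cyp26a1, whose product oxidizes and so clears RA. The comparison asks which of the responses of the liver to dietary RA still occur when hepatocytes lack RXRα with a DNA-binding domain.

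The promoters of 3 of the genes that rose most are shown because they carry the letters of the best known response elements of these pathways. Each sequence is the 250 bases before the annotated start in RefSeq (GRCm38.p6), read 5′ to 3′ on the strand of the gene, and a promoter entry was found for 51 of the 62 genes called below. Cyp26a1 is at chr19:37697558-37697807 on the plus strand, and its capitals mark a direct repeat with 5 bases between the half-sites, on the opposite strand and 32 to 16 bases before the start. The half-site searched was AGGTCA on either strand. Its variant AGTTCA was searched as well. The search also took the variant GGGTCA and, last, the variant with both changes, which is GGTTCA. Orm2 is at chr4:63362199-63362448 and Orm3 at chr4:63355908-63356157, both on the plus strand, and their capitals mark a match to TTGCNNAA, letters bound by C/EBP proteins.
Cyp26a1: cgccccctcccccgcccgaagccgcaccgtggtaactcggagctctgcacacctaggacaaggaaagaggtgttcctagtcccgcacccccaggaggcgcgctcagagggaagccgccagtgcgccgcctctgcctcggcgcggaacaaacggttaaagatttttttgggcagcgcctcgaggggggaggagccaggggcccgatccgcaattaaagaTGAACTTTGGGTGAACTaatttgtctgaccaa
Orm2: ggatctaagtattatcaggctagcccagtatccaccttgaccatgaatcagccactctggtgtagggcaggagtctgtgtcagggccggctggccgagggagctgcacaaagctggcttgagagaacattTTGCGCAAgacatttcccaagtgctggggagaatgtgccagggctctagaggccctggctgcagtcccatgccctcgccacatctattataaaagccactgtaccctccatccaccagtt
Orm3: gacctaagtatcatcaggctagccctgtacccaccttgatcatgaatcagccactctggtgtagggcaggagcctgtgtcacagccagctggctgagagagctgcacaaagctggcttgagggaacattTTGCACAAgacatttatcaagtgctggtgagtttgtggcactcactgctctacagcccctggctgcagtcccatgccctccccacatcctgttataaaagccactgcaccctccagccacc
The direct repeat with 5 bases between half-sites was in 0.0883% of the 32851 promoter windows of this length and in 0.104% of genes. Among the 51 called genes with a window it was in that of Cyp26a1 alone. Repeats with 1 or 2 bases between half-sites, in 0.164% and 0.174% of windows, were in no window of the 51. TTGCNNAA was in 9.56% of all windows. By gene it was in 10.8% of all genes with a window and in 9 of the 51, 6 of 30 that rose and 3 of 21 that fell. The 6 were Orm2, Orm3, Lcn2, Saa4, Fam167b and Tacc2, and no window printed here held both motifs. The windows of Orm2 and Orm3 start 6291 bases apart on the chromosome and were identical at 219 of 255 alignment columns (85.9%). A match of letters is a description of the sequence and no measurement of binding.

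The arrays lay on a common scale, with lower quartiles of 4.87 to 5.02 log2 units, and the 12 hepatocyte markers measured all read above these quartiles, at medians of 13.07 to 13.19 on the KO and KO_RA arrays. KO 1 stood apart from the other KO and KO_RA arrays, with a 3′ control signal for Actb of 9.12 against 12.2 to 12.9 on the other 5. WT_RA 3 stood apart in the same way (9.40). Counts are therefore also given without these arrays. Rxra itself read 10.11, 10.66 and 10.84 in KO and 10.91, 10.76 and 10.85 in KO_RA (0.30 ± 0.18, SE, limma adjusted p = 0.479), and as the sources used here do not say which exon its probes lie in, it does not check the deletion. The other RXR genes did not pass either, with changes of -0.11 ± 0.11 for Rxrb (adjusted p = 0.678) and 0.04 ± 0.11 for Rxrg (adjusted p = 0.914).

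RA changed 62 genes in KO mice at a limma adjusted p under 0.05, which is 0.500% of the 12393 tested. Of these 34 were higher (0.274%) and 28 lower (0.226%). The rises reached 3.27 on the log2 scale, led by the acute phase gene Orm2, and the falls reached -3.68, led by Alas2. The smallest changes called were 0.41 and -0.39, and 15 rises and 14 falls were of 1 or more. In all 62 genes the KO and KO_RA arrays did not overlap, against 20.9% of all genes, but this count follows from the call and adds nothing to it. The median change over all genes was -0.03, with 43.0% of genes positive. Replicate numbers of KO and KO_RA did not mark shared litters in the labels, and with 3 arrays a group an exact permutation test of 1 gene could not fall below 0.1. Without KO 3 only 6 of the 62 calls remained (Cyp26a1, Dnase1l3, F8, Bmp2, Timp3 and Tmem37), and without KO_RA 2 11 of them. All 62 kept their direction in each of the 12 fits that left out 1 array. That was fixed in advance, as their KO and KO_RA arrays did not overlap. WT and WT_RA arrays do not enter the change itself. Without KO 1, 68 genes were called, 20 higher and 48 lower, and lower calls were the more numerous in 8 of the 12 fits with 1 array left out, so which direction was more frequent is not settled. At an unadjusted p under 0.05 there were 1740 genes, of which 758 were higher (6.12%) and 982 lower (7.92%). With the 6 KO and KO_RA arrays alone, 21 genes were called, 18 of them among the 62, and none of the calls described below in the lists of amino acid breakdown and of iron and heme.

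**Figure D1:**
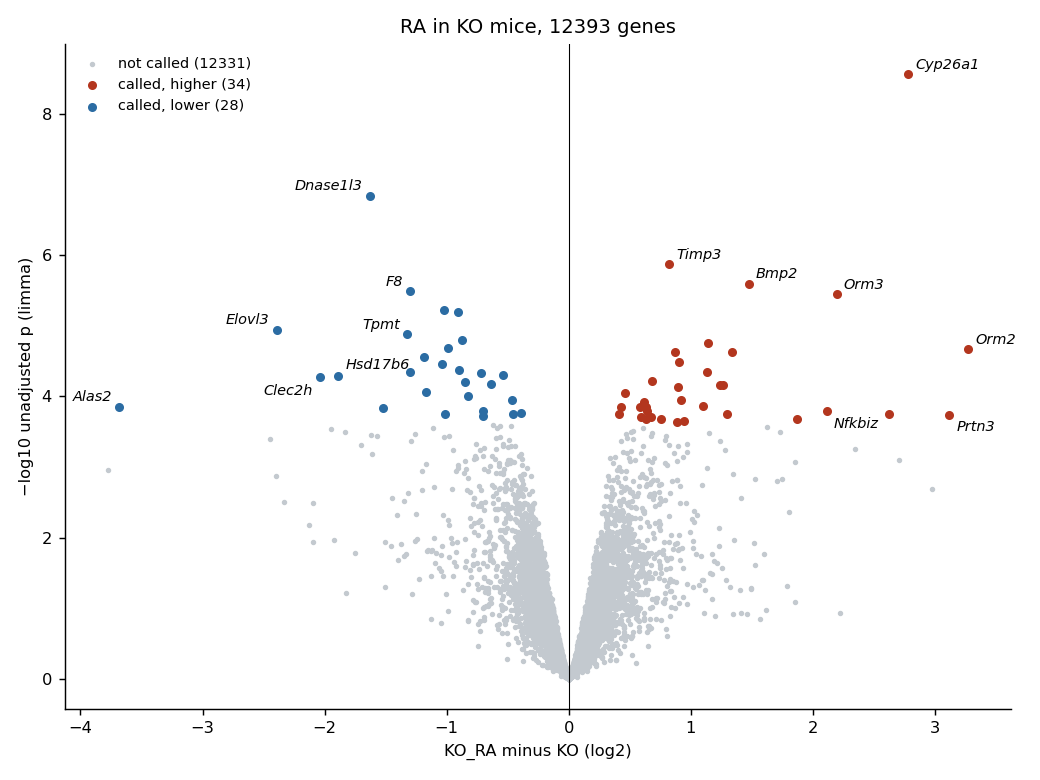
Change of each of 12393 genes under RA in KO mice (KO_RA minus KO, log2, horizontal axis) against the −log10 unadjusted p of limma (vertical axis), 1 point per gene. The 34 genes called as higher are red and the 28 called as lower are blue. Cyp26a1 has the smallest p, and Alas2 and Orm2 the largest changes among called genes.

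Cyp26a1, the RA hydroxylase, was called with the smallest p of any gene. It read 8.43, 8.43 and 8.69 in KO and 11.39, 11.34 and 11.15 in KO_RA, a rise of 2.78 ± 0.18 (SE, n = 3, limma adjusted p = 3.35e-05), or 6.87-fold. All 3 KO_RA arrays lay far above all 3 KO arrays. Trim24, a coregulator of the retinoic acid receptors, read 6.43, 6.69 and 6.13 in KO and 7.40, 8.14 and 7.48 in KO_RA, a rise of 1.26 ± 0.21 (adjusted p = 0.0278). Its other probe set changed by 0.33 and did not pass (limma adjusted p = 0.379 over all single-symbol probe sets). Cyp26a1 and Trim24 were the 2 called of 13 measured genes of RA receptor targets and RA clearance. Of the 13, 11 had a positive change (median 0.25). Among all genes 0.274% were called as higher and 43.0% were positive. Rarb, the receptor gene that RA induces in many cells, read 5.64, 5.64 and 5.40 in KO and 6.32, 5.82 and 6.52 in KO_RA, without overlap, but its change of 0.66 ± 0.17 did not pass (adjusted p = 0.116). Lrat, which esterifies retinol for storage, changed by 0.39 ± 0.09 (adjusted p = 0.0823) at levels of 3.92 to 4.48, below the lower quartile of each array. The other members lay closer to 0. The changes were 0.32 for Crabp2 (below these quartiles too, as was Crabp1 at 0.10), 0.27 for Tgm2, 0.25 for Rara, 0.17 for Hoxb4, 0.14 for Rarg, 0.02 for Cdx1 and -0.03 for Stra6, and Dhrs3, a retinaldehyde reductase, read 10.28 in KO and in KO_RA. Hoxa5, a homeobox gene outside the list, rose by 0.68 ± 0.11 (adjusted p = 0.0273). The Cyp26a1 call held in all 12 fits with 1 array left out (adjusted p up to 0.000581). That of Trim24 was absent without KO 1, KO 3 or KO_RA 2 (adjusted p up to 0.0915), and that of Hoxa5 in 5 of the 12 fits, without KO 2, KO 3 or any KO_RA array (up to 0.0914). None of the 23 genes of retinoid supply and oxidation passed in limma (1 higher and 3 lower at an unadjusted p under 0.05, against 6.12% higher and 7.92% lower over all genes), among them Aox3, an oxidase of retinaldehyde (-0.76 ± 0.17, adjusted p = 0.0721).

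**Figure D2:**
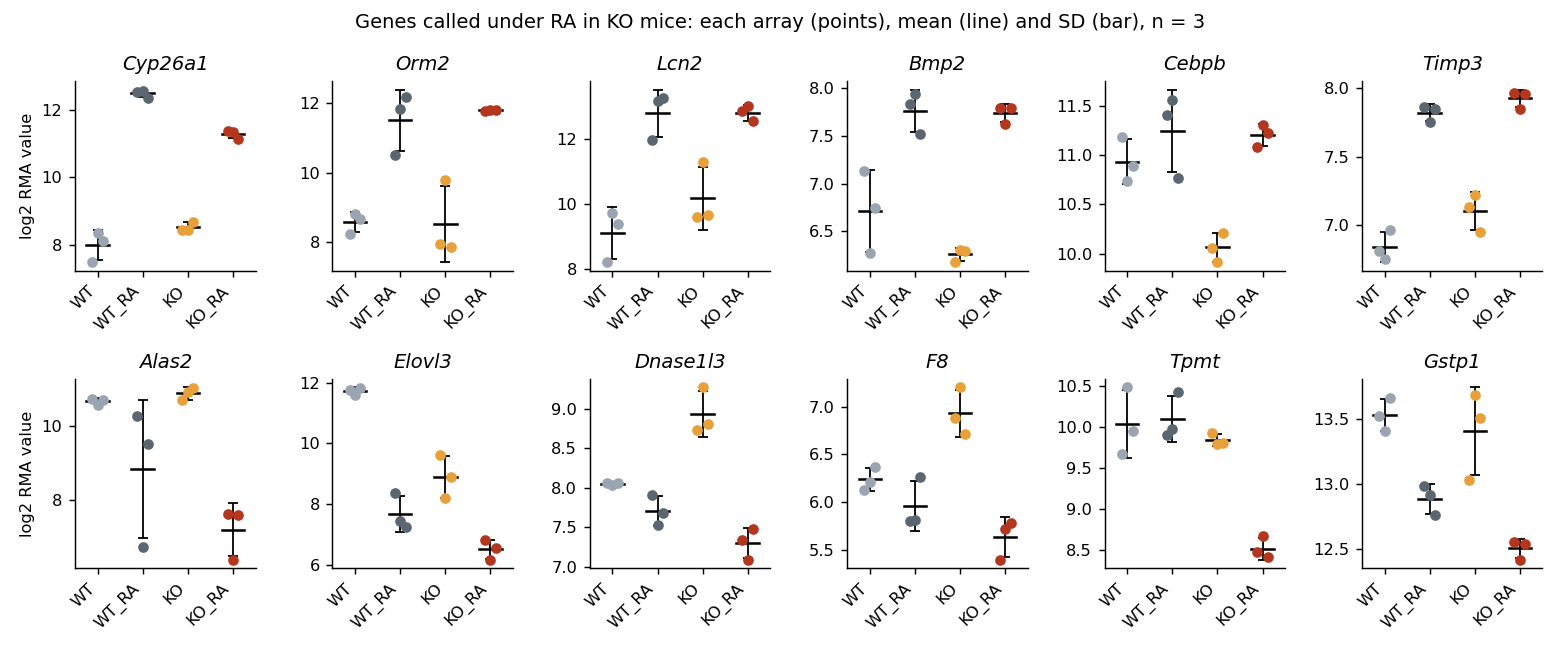
Log2 RMA values (vertical axes, a separate scale for each gene) of 12 genes called under RA in KO mice on each array of the WT, WT_RA, KO and KO_RA groups (horizontal axes), with the group mean as a line and the SD as a bar (n = 3). The upper 6 genes were higher and the lower 6 lower in KO_RA than in KO, with no overlap between these groups.

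Acute phase proteins are secreted by hepatocytes in inflammation. Of 28 genes measured in KO mice fed RA, 5 rose, none fell and 23 did not pass, and all 28 had a positive change (median 0.53, against -0.03 over all genes). Of all genes 0.274% were called as higher and 43.0% were positive. Orm2, an orosomucoid that binds drugs and lipids in plasma, read 7.93, 9.80 and 7.85 in KO and 11.77, 11.82 and 11.80 in KO_RA, a rise of 3.27 ± 0.49 (adjusted p = 0.0184), or 9.65-fold. KO 2 stood between the other KO arrays and the KO_RA arrays, which lay close together. Orm3 read 7.95, 7.80 and 7.53 in KO and 9.82, 10.27 and 9.77 in KO_RA, a rise of 2.19 ± 0.27 (adjusted p = 0.0074). Orm1, a further paralog, changed by 0.69 ± 0.17 (adjusted p = 0.0949). As these genes are close in sequence, each probe set may also read its paralogs, and their changes are not independent.

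Lcn2, the iron-binding lipocalin, read 9.60, 11.29 and 9.66 in KO and 12.86, 13.003 and 12.54 in KO_RA, a rise of 2.62 ± 0.49 (adjusted p = 0.0419). Itih3, an inter-alpha-trypsin inhibitor chain, rose by 0.94 ± 0.18 (adjusted p = 0.0452), and Saa4, a constitutive serum amyloid A, by 0.63 ± 0.11 (adjusted p = 0.0405). The inducible Saa2 had the next largest change after that of Orm2 (2.98 ± 0.76, adjusted p = 0.105). It did not pass, as it ranged from 8.86 to 11.45 in KO and from 12.09 to 13.93 in KO_RA. Fgl1 (1.85, adjusted p = 0.0737), Saa1 (1.71, adjusted p = 0.095) and Lbp (1.28, adjusted p = 0.0649) also did not pass. The call of Orm3 was absent without KO 3 (adjusted p = 0.0551), that of Orm2 without KO 3, KO_RA 1 or KO_RA 2 (up to 0.0723), and those of Lcn2, Itih3 and Saa4 in 8, 9 and 9 of the 12 fits with 1 array left out (up to 0.146, 0.179 and 0.117). With the KO and KO_RA arrays alone only Orm3 of the list was called (adjusted p = 0.00502). Leaving out KO 3 ended all 5 calls, leaving out KO 1 left 3 of the list, and the median stayed between 0.44 and 0.68 whichever KO or KO_RA array was left out.

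Among 24 genes of cytokine signalling, which drives the acute phase, 1 rose and none fell, against 0.274% and 0.226% of all genes. It was Cebpb, a transcription factor of acute phase genes, with 10.06, 9.92 and 10.21 in KO and 11.08, 11.30 and 11.22 in KO_RA (1.14 ± 0.18, adjusted p = 0.0252). Its other probe set rose by 1.59 (adjusted p = 0.0473, over all single-symbol probe sets). Stat3, the factor activated by interleukin 6, changed by 0.69 ± 0.14 (adjusted p = 0.0542) and Il1r1, the receptor of interleukin 1, by 1.75 ± 0.43 (adjusted p = 0.0949). Neither passed. Outside the list, Nfkbiz, an inducible cofactor of NF-κB, rose by 2.11 ± 0.39 (adjusted p = 0.0419), from 7.70, 7.00 and 7.15 in KO to 9.24, 10.14 and 8.79 in KO_RA. Prtn3, which encodes a serine protease of neutrophil granules, rose by 3.11 ± 0.59 (adjusted p = 0.0419), from 4.56, 5.25 and 4.75 to 8.38, 8.64 and 6.89. Its mean in KO was below the lower quartile of each array, which leaves the size of the rise uncertain. Of 10 neutrophil markers none passed in limma, 0 had an unadjusted p under 0.05, and 4 were positive (median -0.05). S100a8 changed by 0.79 ± 0.58, and the granule genes Elane and Mpo by -0.10 and -0.07. The list read at medians of 6.26 to 6.54 on the KO arrays and 6.18 to 6.26 on the KO_RA arrays. The part of neutrophil number in the Prtn3 result was not tested. The call of Cebpb was absent without KO 2, KO 3 or any KO_RA array (adjusted p up to 0.0914). That of Nfkbiz was absent in 6 of the 12 fits (without KO 2, KO 3, KO_RA 1, KO_RA 2, WT 1 or WT_RA 2, up to 0.141). That of Prtn3 was present only without KO_RA 3, WT_RA 1 or WT_RA 3 (up to 0.166 in the other 9).

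Bmp2, a bone morphogenetic protein, read 6.18, 6.31 and 6.29 in KO and 7.79, 7.62 and 7.79 in KO_RA, a rise of 1.47 ± 0.18 (adjusted p = 0.0074). Its groups were narrow and far apart, and the call held in all 12 fits with 1 array left out. Timp3, an inhibitor of metalloproteinases, rose by 0.82 ± 0.09 (adjusted p = 0.00547), from 7.13, 7.22 and 6.95 to 7.97, 7.85 and 7.96, and held in all 12 fits too. Of its 3 further probe sets 1 also passed (0.95, adjusted p = 0.0202), with 0.48 and 0.18 for the others. Mmp14, a membrane-bound metalloproteinase, rose by 1.24 ± 0.21 (adjusted p = 0.0278), Emilin1, an elastic fibre glycoprotein, by 0.90 ± 0.14 (adjusted p = 0.0222), and Cd24a, a surface glycoprotein, by 1.10 ± 0.20 (adjusted p = 0.0405). In KO, Cd24a was under every lower quartile (4.64). Tacc2, which encodes a centrosomal coiled-coil protein, rose by 1.14 ± 0.17 (adjusted p = 0.0179), and Tmem184c, a membrane protein gene, by 1.29 ± 0.24 (adjusted p = 0.0419). The call of Tacc2 was absent without KO 3 or KO_RA 2 (up to 0.0721), that of Emilin1 without KO 3 or any KO_RA array (up to 0.0768), that of Mmp14 without any KO array, KO_RA 1 or KO_RA 2 (up to 0.0941), and those of Cd24a and Tmem184c each in 9 of the 12 fits (up to 0.0959 and 0.144).

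In the iron and heme list, 2 of 21 genes rose and none fell, against 0.274% of all genes called as higher. Tfrc, the transferrin receptor that brings iron into cells, read 7.94, 8.64 and 7.95 in KO and 9.70, 9.60 and 9.25 in KO_RA, a rise of 1.34 ± 0.20 (adjusted p = 0.0184). Its other 2 probe sets changed by 0.72 and 0.30 and did not pass. Bmp6, the ligand that couples liver iron to hepcidin, rose by 0.58 ± 0.11 (adjusted p = 0.0405) at low levels (4.88 in KO, 5.46 in KO_RA). Hamp, the hepcidin gene, changed by 0.22 ± 0.10 (adjusted p = 0.35). Nnmt, a methyltransferase of nicotinamide, rose by 1.87 ± 0.36 (adjusted p = 0.0438) from 8.45, 9.92 and 9.97 to 11.02, 11.44 and 11.48, and KO 1 was the lowest array. The call of Tfrc was absent without KO 3, KO_RA 1 or KO_RA 2 (adjusted p up to 0.0732), that of Bmp6 in 7 of the 12 fits (without WT 2 or any KO or KO_RA array, up to 0.144), and that of Nnmt was present only without KO 1 or WT 2 (up to 0.157 in the other 10).

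Of 32 genes of amino acid breakdown and the urea cycle, 2 rose, none fell and 29 were positive (median 0.19). Over all genes 0.274% were called as higher and 43.0% were positive. Tat, a tyrosine aminotransferase and a hepatocyte marker, read 12.05, 11.90 and 11.96 in KO and 12.62, 13.09 and 12.95 in KO_RA (0.92 ± 0.16, adjusted p = 0.0376). Prodh, which starts the breakdown of proline, rose by 0.89 ± 0.15 (adjusted p = 0.028). Got1, the cytosolic aspartate aminotransferase, had the largest change of the list (1.52 ± 0.37) and did not pass (adjusted p = 0.0945). Lpgat1, an acyltransferase of phospholipid synthesis, rose by 0.87 ± 0.13 (adjusted p = 0.0184) from 9.83 to 10.01 in KO to 10.76 to 10.84 in KO_RA. It was the only call among 20 genes of phospholipid synthesis, and its 3 further probe sets changed by 1.20 to 1.52, of which 2 passed. The call of Tat was absent without any KO array, KO_RA 2 or KO_RA 3 (up to 0.134), that of Prodh without KO 2, KO 3 or any KO_RA array (up to 0.105), and that of Lpgat1 without KO 2, KO 3, KO_RA 1 or KO_RA 2 (up to 0.0732). The 12 hepatocyte markers had a median change of 0.12, or 0.03 without KO_RA 2, and Tat was the only one called.

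Genes that mark liver endothelial cells were, at 4, the most numerous called genes of any list among those that fell. Of 15 endothelial markers 4 fell, none rose and 11 did not pass, with a median change of -0.32. Among all genes 0.226% were called as lower, and the median was -0.03. At an unadjusted limma p under 0.05, 8 markers were lower and 2 higher, against 7.92% and 6.12% of all genes. Dnase1l3, a secreted nuclease, read 8.73, 9.27 and 8.80 in KO and 7.34, 7.09 and 7.48 in KO_RA, a fall of 1.63 on the log2 scale (SE 0.15, adjusted p = 0.000879), to 0.323 of its KO level. Its other probe set changed by -1.24 and did not pass (limma adjusted p = 0.141 over all single-symbol probe sets). Tek, the angiopoietin receptor TIE2, read 6.79, 7.41 and 7.08 in KO and 6.26, 5.97 and 6.09 in KO_RA (-0.99 ± 0.15, adjusted p = 0.0184). Gpr182, an atypical chemokine receptor of sinusoids, changed by -0.90 ± 0.12 (adjusted p = 0.0097) and Fcgr2b, an inhibitory Fc receptor, by -0.46 ± 0.09 (adjusted p = 0.0419). The 3 further probe sets of Fcgr2b changed by -1.03 to -1.39 and all passed over all single-symbol probe sets. F8, the coagulation factor made by liver endothelium, is on no marker list here and read 6.88, 7.21 and 6.71 in KO and 5.39, 5.72 and 5.78 in KO_RA (-1.30 ± 0.16, adjusted p = 0.0074). Clec14a, an endothelial surface lectin picked after its values were seen, changed by -0.88 ± 0.13 (adjusted p = 0.0179). Its other probe set, below the lower quartile of each array, changed by -0.34 and did not pass (limma adjusted p = 0.171). F8 and Clec14a are named here because they fell, and rises among endothelial genes outside the list were not counted.

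The fall was not shared by all endothelial markers. Stab1 (0.08), Kdr (0.11) and Lyve1 (-0.07) lay near 0, Pecam1 changed by -0.15 ± 0.15, and Ptprb (1.04 ± 0.38, adjusted p = 0.248) and Tie1 (0.46) were positive. In whole liver, fewer cells of a type and less RNA per cell cannot be told apart, here and for each other marker list. On the scale of the list, where 0 is the mean of all 12 arrays, KO arrays read 0.16, 0.35 and 0.25 and KO_RA arrays -0.15, -0.18 and -0.07, against -0.17 to 0.05 in WT and -0.09 to -0.01 in WT_RA. KO arrays thus lay above the other 9 and KO_RA arrays within or just below the WT range. The calls of Dnase1l3 and F8 held in all 12 fits with 1 array left out (adjusted p up to 0.00863 and 0.0375). That of Gpr182 was absent without KO 3 (0.0551), those of Tek and Clec14a without KO 3 or KO_RA 2 (up to 0.0732 and 0.0722), and that of Fcgr2b in 11 of the 12 fits, all but that without KO 1 (up to 0.146). Without KO 1, 4 markers of the list were called, and without KO 3 only 1. With the KO and KO_RA arrays alone Dnase1l3 was the only one called (adjusted p = 0.0163), with 0.0834 for Tek, 0.0719 for Gpr182 and 0.142 for Fcgr2b, while F8 and Clec14a passed (0.0323 for both).

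Other fallers are expressed by mesenchymal or vascular cells. Col14a1, a fibril-associated collagen, read 7.30, 7.34 and 7.06 in KO and 6.24, 5.62 and 5.94 in KO_RA (-1.30 ± 0.21, adjusted p = 0.0252). Igfbp7, a secreted binding protein, changed by -1.19 ± 0.18 (adjusted p = 0.0203), from 9.81 to 9.97 in KO to 8.57 to 8.85 in KO_RA. Its 2 further probe sets changed by -0.30 and -0.01 and did not pass. Bmp4, a bone morphogenetic protein picked after its values were seen, fell by 0.72 on the log2 scale (SE 0.12, adjusted p = 0.0252) while Bmp2 and Bmp6 rose. None of 13 stellate cell and fibroblast markers passed in limma (median -0.10, with 1 higher and 4 lower at an unadjusted p under 0.05, against 6.12% and 7.92% over all genes), among them Col3a1 (-1.70 ± 0.36, adjusted p = 0.0609) and Lum (-1.12 ± 0.22, adjusted p = 0.0506), while Col1a1, Acta2 and Hhip changed by -0.10, -0.15 and 0.05. The calls of Col14a1 and Igfbp7 were absent without KO 2, KO 3, KO_RA 2 or KO_RA 3 (up to 0.0914 and 0.0788) and that of Bmp4 without KO 2, KO 3, KO_RA 1 or KO_RA 3 (up to 0.0881).

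Several called genes that fell encode enzymes. Elovl3, which elongates saturated fatty acids, read 9.60, 8.20 and 8.88 in KO and 6.80, 6.16 and 6.55 in KO_RA, a change of -2.39 ± 0.33 (adjusted p = 0.0156). It was the only call among 26 genes of fatty acid and triglyceride synthesis. Hsd17b6, which oxidizes steroids and retinol, read 10.76, 10.72 and 11.12 in KO and 8.81, 8.61 and 9.53 in KO_RA (-1.89 ± 0.31, adjusted p = 0.0254), but its other probe set gave a change near 0 (0.00439, adjusted p = 0.989). Of 26 conjugation enzymes 2 fell and none rose (median -0.25), against 0.226% of all genes called as lower. Gsta4, a glutathione transferase for lipid aldehydes, changed by -1.02 ± 0.13 (adjusted p = 0.0097), with 10.13 to 10.29 in KO and 9.08 to 9.42 in KO_RA. Gstp1, the abundant pi class transferase, changed by -0.90 ± 0.14 (adjusted p = 0.0252). Gsta2 had a larger change (-1.57 ± 0.32) and did not pass (adjusted p = 0.0551). Tpmt, which methylates thiopurines, read 9.92, 9.79 and 9.80 in KO and 8.47, 8.66 and 8.41 in KO_RA (-1.32 ± 0.19, adjusted p = 0.0163), with -0.35 in its other probe set (adjusted p = 0.392). Fabp2, a fatty acid binding protein picked after its values were seen, changed by -0.85 ± 0.14 (adjusted p = 0.0273). The calls of Gsta4 and Tpmt were absent without KO 3 (0.0551 and 0.0633), that of Elovl3 without KO 3 or KO_RA 2 (up to 0.0636), that of Hsd17b6 without KO 2, KO 3, KO_RA 1 or KO_RA 2 (up to 0.095), that of Gstp1 without KO 2, KO 3 or any KO_RA array (up to 0.0914), and that of Fabp2 without KO 1, KO 3, KO_RA 1 or KO_RA 2 (up to 0.095).

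Elovl3 and Gstp1 are also 2 of 19 genes that liver expresses more in males, and these were the 2 of that list that fell. No male-biased gene rose, 17 of 19 were negative, and the median was -0.53, or between -0.77 and -0.36 without any 1 KO or KO_RA array. At an unadjusted limma p under 0.05, 14 of the 19 were lower and 0 higher, against 7.92% and 6.12% of all genes. Over all genes 0.226% were called as lower and 43.0% were positive. Cyp4a12a (-0.69 ± 0.15, adjusted p = 0.0628), Nudt7 (-1.62 ± 0.35, adjusted p = 0.0683) and Ugt2b1 (-0.66 ± 0.16, adjusted p = 0.0839) did not pass. Of 21 female-biased genes 1 rose, Trim24, and none fell (median 0.12). Leaving out KO 3 or KO_RA 2 ended both male-biased calls, and leaving out KO 2, KO_RA 1 or KO_RA 3 ended that of Gstp1. With the KO and KO_RA arrays alone neither was called.

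The largest fall of all was that of Alas2, which encodes the erythroid form of the enzyme that starts heme synthesis. It read 10.69, 10.93 and 11.01 in KO and 7.61, 6.38 and 7.60 in KO_RA, a change of -3.68 ± 0.67 (adjusted p = 0.0405), or 0.0779 of the KO level. The other 3 erythroid markers measured did not pass, with 0.03 for Hba-a1, whose level was under every lower quartile, -0.15 for Slc4a1 and -0.27 for Epb42. The level of that list ranged from 5.05 to 5.60 on the KO arrays and 5.02 to 5.15 on the KO_RA arrays (median over its genes), and the part of blood cells in the Alas2 result was not tested. Alas1, the form that other cells use, changed by 0.74 ± 0.22 (adjusted p = 0.163). Alas2 also varied among WT_RA arrays (10.26, 6.72 and 9.51), whose spread enters the SE. Its call was present only without WT_RA 1, WT_RA 2 or WT_RA 3 (up to 0.146 in the other 9 fits).

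Clec2h, a C-type lectin-like gene, read 7.41, 8.43 and 8.05 in KO and 5.84, 5.63 and 6.30 in KO_RA (-2.04 ± 0.33, adjusted p = 0.0254). Its 2 further probe sets changed by -4.42 and -3.12 and passed. Keg1, a glycine acyltransferase family gene, changed by -1.52 ± 0.28 (adjusted p = 0.0405), Ms4a4d, a membrane-spanning 4-domain family gene, by -1.17 ± 0.20 (adjusted p = 0.0324), Sntg2, a syntrophin, by -1.04 ± 0.16 (adjusted p = 0.0224), and Dennd4c, a Rab exchange factor, by -1.02 ± 0.19 (adjusted p = 0.0419). The call of Sntg2 was absent without KO 3, KO_RA 1 or KO_RA 2 (up to 0.0813), that of Clec2h without KO 2, KO 3, KO_RA 1 or KO_RA 2 (up to 0.0954), that of Ms4a4d without any KO or KO_RA array (up to 0.108), and those of Keg1 and Dennd4c each in 9 of the 12 fits (up to 0.146 and 0.129). The 62 called genes had 36 further probe sets, of which 35 changed in the direction of the gene. Of the 36, 11 passed at a limma adjusted p under 0.05, and of all 20380 single-symbol probe sets 0.461% did. As they read already called genes on the same arrays, these counts are no separate evidence for the calls. Some of the 35 hardly changed, such as those of Tbcel (-0.03) and Metap1d (0.01).

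The remaining called genes moved less. Of the risers Gpx3, a secreted glutathione peroxidase, read 6.52, 6.76 and 6.77 in KO and 7.13, 7.59 and 7.25 in KO_RA (0.64 ± 0.12, adjusted p = 0.0419). Ltc4s, the leukotriene C4 synthase, rose by 0.63 ± 0.12 and Fpgs, which adds glutamates to folate, by 0.75 ± 0.14 (adjusted p = 0.0438 for both). Stard13, Sema6b, Nt5c2, Tmem37, Tex261, Metap1d and Fam167b rose by 0.41 to 0.89. Of the fallers Gas2, a cytoskeletal protein gene, read 7.89, 7.87 and 8.10 in KO and 6.95, 6.94 and 7.50 in KO_RA (-0.82 ± 0.14, adjusted p = 0.035). Serpinb6a, a serine protease inhibitor, changed by -0.64 ± 0.11 (adjusted p = 0.0278) and Qpct, a glutaminyl cyclase, by -0.54 ± 0.09 (adjusted p = 0.0254). Tbcel, Cfap20, Plekhg6 and Ndrg3 changed by -0.71 to -0.39. These genes were named after their values were seen, and none kept its call in all 12 fits with 1 array left out. Of all 62 called genes 5 did, 17 kept it in at least 9 of the 12, and 27 kept it in under 6.

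**Figure D3:**
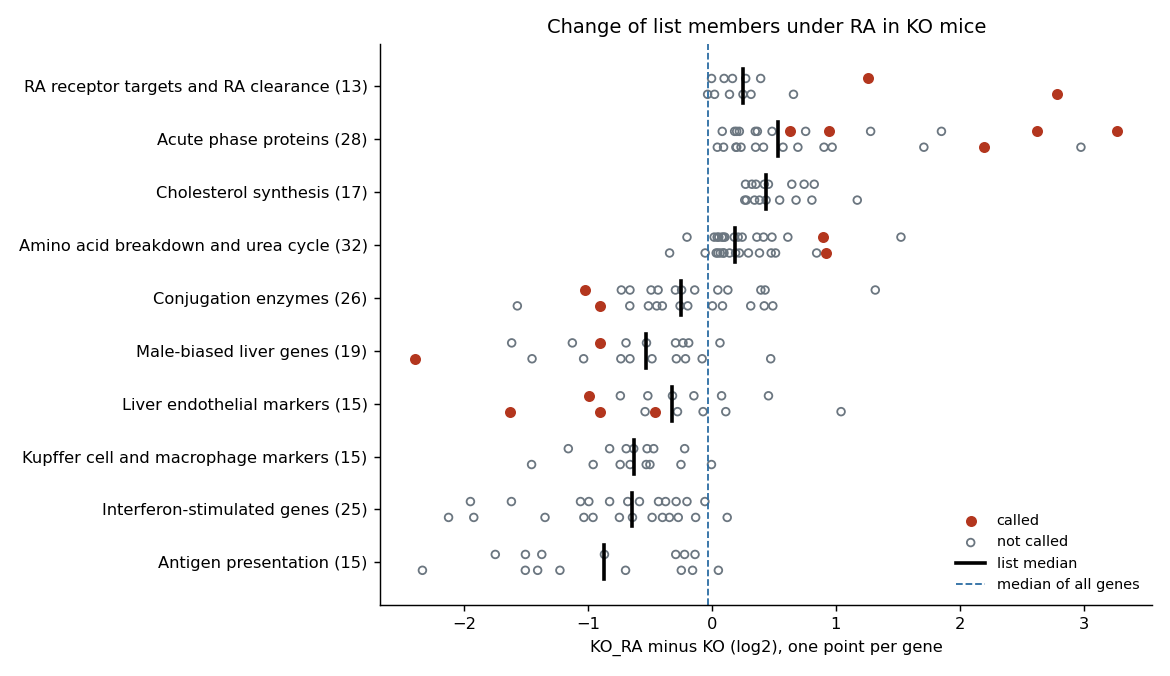
Change under RA in KO mice (KO_RA minus KO, log2, horizontal axis) of each measured gene of 10 lists (rows, number of genes in brackets), with called genes as filled points, the list median as a black bar and the median of all genes (-0.03) as a dashed line. Acute phase, endothelial and RA target genes hold called members, whereas cholesterol synthesis, Kupffer cell, interferon and antigen presentation genes have shifted medians with none called.

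Several lists had a median away from that of all genes with no gene called by limma. Of 17 cholesterol synthesis genes all had a positive change (median 0.44) and none passed, among them Mvd (1.17 ± 0.42, adjusted p = 0.247), Fdft1 (0.83 ± 0.36), Sqle (0.81 ± 0.30) and Cyp51 (0.74 ± 0.23, adjusted p = 0.192), though 5 were higher at an unadjusted p under 0.05, against 6.12% of all genes. On the list scale the KO arrays read -0.59, 0.30 and 0.03 and the KO_RA arrays 0.60, -0.09 and 0.73, so the groups overlapped through KO 2, KO 3 and KO_RA 2. The median was 0.26 without KO 1, 0.77 without KO_RA 2 and 0.29 without KO_RA 3. Of 35 stress and unfolded protein response genes 25 were positive and none passed (median 0.21, or 0.13 without KO 1 or KO_RA 2). Of 28 cell cycle genes 25 were negative and none passed (median -0.16). At an unadjusted p under 0.05 there were 8 of the 35 stress genes, all higher, and 5 of the 28 cell cycle genes, all lower, against 6.12% higher and 7.92% lower over all genes.

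Genes of immune cells and interferon lay lower, with none called. Of 15 Kupffer cell and macrophage markers all 15 had a negative change (median -0.63), of 25 interferon-stimulated genes 24 (median -0.64), and of 15 antigen presentation genes 14 (median -0.87). At an unadjusted p under 0.05 in limma there were 3, 10 and 7 of them, all lower, against 7.92% lower over all genes, which puts the Kupffer count of 3 of 15 nearest to the background. Among the largest changes were those of H2-Aa, a class II antigen presentation gene (-2.34 ± 0.64, adjusted p = 0.128), Igtp (-2.12 ± 0.65, adjusted p = 0.174) and Gbp2 (-1.95 ± 0.39, adjusted p = 0.0506), interferon-induced GTPases, and Cd5l, a macrophage protein (-1.45 ± 0.50, adjusted p = 0.229). KO 2 was the highest array in each of these lists. H2-Aa read 7.95, 11.25 and 9.50 in KO against 7.40, 6.51 and 7.79 in KO_RA, and Cd5l 9.20, 11.89 and 10.75 against 9.06, 9.04 and 9.39. On the list scale Kupffer markers read -0.38, 1.60 and 0.44 in KO and -0.11, -0.15 and -0.01 in KO_RA, and antigen presentation genes -0.49, 1.95 and 0.58 in KO and -0.27, -0.38 and -0.01 in KO_RA. Without KO 2 the medians were -0.06 for Kupffer markers, -0.25 for interferon genes and -0.28 for antigen presentation, and without KO 1 they were -1.15, -1.03 and -1.41. KO 2 was also the highest KO array for Orm2 and Lcn2, genes that rose in KO_RA, and for Dnase1l3, Tek and F8, which fell. In WT mice fed RA all 15 Kupffer markers had a positive change (median 0.88, against -0.01 over all genes). The medians in WT mice were 0.03 for interferon genes and -0.02 for antigen presentation.

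**Figure D4:**
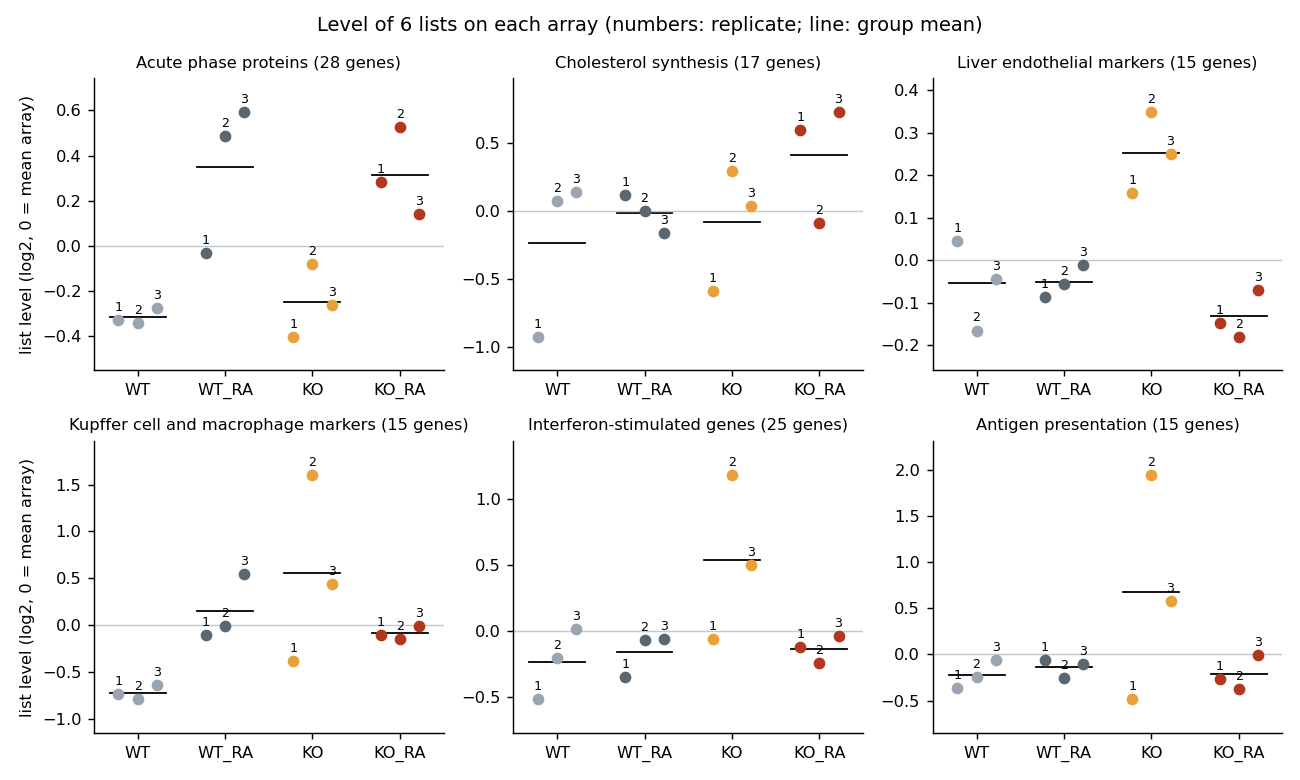
Level of 6 lists on each array (vertical axes, log2; the median over the genes of the list after each gene is centred on its mean over the 12 arrays) in WT, WT_RA, KO and KO_RA mice (horizontal axes), with replicate numbers beside the points and group means as lines. KO_RA arrays lay above KO arrays for acute phase proteins and below them for endothelial markers, whereas KO 2 was high for Kupffer cell, interferon and antigen presentation genes.

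Wild type mice fed RA show how far these responses went with RXRα in place. The RA effects of the genotypes share no array, but the spread of each gene was estimated over all arrays of the series. The calls of KO and WT mice, and their overlap, are therefore not independent. RA changed 158 genes in WT mice (1.27% of those tested). Of these 20 were also among the 62 of KO mice, which is 12.7% of the WT calls and 32.3% of the KO calls, and all 20 changed the same way. Of the 34 risers in KO mice 16 were called in WT mice, and of the 28 fallers 4, namely Elovl3, Hsd17b6, Tbcel and Cfap20. The other probe set of Tbcel changed by -0.03 in KO (limma adjusted p = 0.982) and by -1.42 in WT mice. With the mean of its probe sets Tbcel was not called in KO mice (limma adjusted p = 0.501). In all, 55 of the 62 had the same sign in WT mice. A call in KO mice and none in WT mice does not show that the effects differ, and the difference itself was called for 1 gene of 12393 (0.00807%).

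That gene was Obp2a, which encodes an odorant-binding lipocalin. It read 5.28, 5.07 and 5.59 in WT and 7.77, 7.16 and 7.12 in WT_RA, but 4.77, 4.59 and 4.53 in KO and 4.19, 4.36 and 4.28 in KO_RA. Its RA effect was 2.04 in WT mice and -0.36 ± 0.17 in KO mice (adjusted p = 0.376), a difference of -2.39 (limma adjusted p = 0.00503 for the difference). In both KO groups it lay below the lower quartile of each array. The other genes with the smallest p for the difference did not pass. Among them Cyp26a1 rose in both genotypes, by 2.78 in KO and 4.51 in WT mice, with a difference of -1.73 (adjusted p = 0.0566). Chd1l, a chromatin remodeler (-0.09 in KO and 0.83 in WT), Prom1, a membrane glycoprotein (-0.02 and 1.35), and Gas6, a ligand of the TAM receptors (-0.25 and 1.29), were not called in KO mice (adjusted p for the difference 0.0566, 0.0566 and 0.0611). The differences of Atpif1, Ccng1 and Esco1 were -0.92, -1.19 and 1.08 (adjusted p = 0.0611 for each).

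For genes called in KO mice the values of both genotypes were as follows. Orm2 (3.27 in KO and 2.94 in WT mice), Orm3 (2.19 and 1.94), Lcn2 (2.62 and 3.67), Prtn3 (3.11 and 3.76), Nfkbiz (2.11 and 2.56), Bmp2 (1.47 and 1.05), Timp3 (0.82 and 0.98), Lpgat1 (0.87 and 1.09) and Tacc2 (1.14 and 1.04) were called in both, as was Trim24 (1.26 and 2.35, adjusted p = 0.231 for the difference). Cebpb (1.14 and 0.31), Tat (0.92 and 0.16) and Mmp14 (1.24 and -0.09) were called in KO mice and not in WT mice, with adjusted p of 0.255, 0.255 and 0.165 for the difference. Mmp14 read 6.65 in KO, 7.89 in KO_RA, 6.88 in WT and 6.80 in WT_RA. Among the fallers Elovl3 fell from 11.73 to 7.67 in WT mice and from 8.89 to 6.50 in KO mice. Dnase1l3 changed by -1.63 in KO and -0.35 in WT mice (adjusted p = 0.0631 for the difference), Tpmt by -1.32 and 0.07 (0.0919), F8 by -1.30 and -0.28 (0.165) and Tek by -0.99 and -0.22 (0.225). Dnase1l3 read 8.06 in WT, 7.71 in WT_RA, 8.93 in KO and 7.30 in KO_RA, and F8 6.24, 5.96, 6.93 and 5.63, so KO was the highest of the 4 groups for both. The same KO arrays enter that order and the RA effect in KO mice. The 15 endothelial markers had a median of -0.02 in WT mice with none called, and the 28 acute phase genes a median of 0.74 with 9 called as higher. Over all 12393 genes the median in WT mice was -0.01, with 108 called as higher and 50 as lower.

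**Figure D5:**
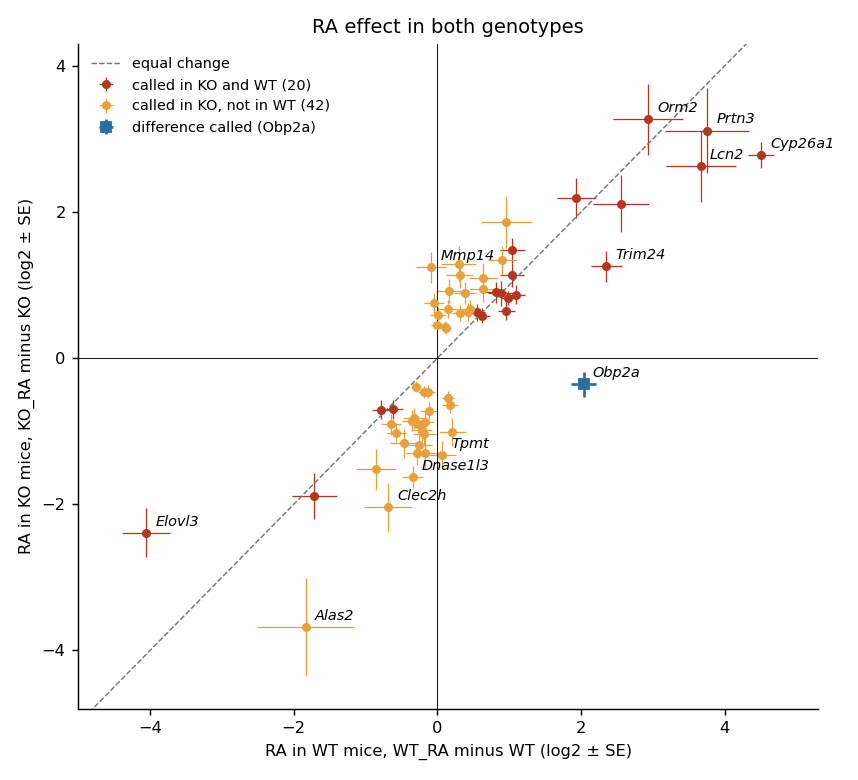
RA effect in WT mice (WT_RA minus WT, horizontal axis) and in KO mice (KO_RA minus KO, vertical axis) of the 62 genes called in KO mice and of Obp2a, in log2 units with SE bars; the dashed line marks equal change. The 20 genes called in both genotypes lie in the same direction from 0, and Obp2a is the gene whose difference was called.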

How the data were processed

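Liver RNA of 4 groups was hybridized to 12 Affymetrix Mouse430A_2 arrays, 3 a group. The authors deposited log2 values per probe set. The submitters' processing notes name RMA and Partek 6.11, whereas the study's methods name MAS5, and the values were taken as RMA, which shrinks differences at low signal. No scanner file was used, so background and normalization could not be redone from raw signal.

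Of 20380 probe sets with a single symbol, that with the highest mean was kept for each of 12393 genes. A linear model of 4 group means was fitted with limma 3.58.1 in R 4.3.3 (8 residual degrees of freedom), and p-values were adjusted by the Benjamini-Hochberg method over all genes. Calls were made where the adjusted p was under 0.05, and errors are SEs of the fit. The number of arrays limits the precision. The fit was tested on simulated data. Rules for named genes took up to 15 called genes with the largest rise and 15 with the largest fall, up to 4 called members of each of 43 gene lists, all RA targets, the Rxr genes, and the 8 genes with the smallest adjusted p for the difference between genotypes. Other genes, including members that were not called, were named after their values were seen. The members and lists were chosen with earlier results of these data known.

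Alternatives were other groups in the fit, a replicate block, further normalization, centring, a filter on dim probe sets, other probe set rules, other estimates of the spread, array weights and leaving out arrays. Replicate numbers of KO and KO_RA arrays did not deviate together (r = 0.0781, 0.0122 and -0.0896). Those of WT and WT_RA arrays had r = 0.13, 0.0804 and 0.145, against -0.169 to 0.017 for different numbers. Promoters of RefSeq (GRCm38.p6) were scanned with Python 3.11.15.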

Additional observations from a re-analysis of the deposited data

Results flagged for a closer look

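The RA effect on Obp2a differed between the genotypes by -2.39 on the log2 scale (KO minus WT, limma interaction, adjusted p = 0.00503), with 2.04 in WT mice and -0.36 in KO mice. All 3 WT_RA arrays lay above all WT arrays and all 3 KO_RA arrays below all KO arrays. The adjusted p ranged from 0.00046 to 0.0322 over the alternatives that gave one. Its mean was below the lower quartile of each array in both KO groups, and the filter on dim probe sets left it out.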

How the results depend on the processing

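Of 1408 results for the 62 called genes under other settings, 897 kept direction and call, 511 kept direction without the call and 0 reversed. The 744 of these with 1 array left out could not reverse, as the KO and KO_RA arrays of these genes did not overlap. The count of 62 genes called in KO mice was 21 with KO and KO_RA arrays alone, 107 after further quantile normalization, 303 with array weights, and 110 (38 higher, 72 lower, 40 of the 62 among them) excluding both arrays that stood apart. It ran from 6 without KO 3 to 77 with 1 array left out, and was 42 with KO and KO_RA arrays alone, excluding KO 1, an alternative chosen after seeing the data. The replicate block gave 60 calls, 42 of them shared. The labels give the samples only a shared number and do not pair them. The deviations did not pair KO with KO_RA arrays, but WT and WT_RA arrays of the same number had r = 0.13, 0.0804 and 0.145. For the difference between genotypes, 1 gene was called, against 2 with the replicate block, 5 with each array centred on its median, 0 among genes above the median level (894 at an unadjusted p under 0.05 in limma), 6 with the mean of probe sets, 6 with the probe set of largest variance, 5 with an intensity trend and robust spread, 247 with array weights, 12 excluding both arrays that stood apart, and 1 to 14 with 1 array left out. The cause was not tested. Of 988 list medians under other settings 943 stayed within the spread between arrays. Part of these could not move, as leaving out a WT or WT_RA array does not alter the change from KO to KO_RA. Low probe sets are limited by background, where RMA understates changes.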
